A study of Mus musculus with 6 samples.

Results

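The receptors for type I and type II interferon and the kinases and transcription factors that relay their signals were examined in haematopoietic stem and progenitor cells (HSPCs) lacking Med12. The 9 genes were Ifnar1, Ifnar2, Ifngr1, Ifngr2, Jak1, Tyk2, Stat2, Irf9 and Socs1. Every probe set that the platform annotation gives to exactly 1 of these symbols was taken, which made 17 of the 45037 probe sets tested, for 9 of 18193 named genes. The cells were mouse bone marrow progenitors of a B6/129 background, sorted for absence of lineage markers and for c-Kit and Sca1. Controls (HSPC_control) and knockouts (HSPC_Med12 KO) had 3 microarrays each, and the labels put both at 4 days after pI:pC. The knockout mice were Med12Flox;MxCre. Their floxed allele is cut by a Cre recombinase under the Mx promoter, which interferon switches on in many blood and non-blood cells. The genotype of the control mice, including whether they carried Cre, is not given in the labels. Whether each array came from its own animal is not stated either, so p-values measure the spread between these samples, which may be technical.

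pI:pC is a synthetic double-stranded RNA that makes the animal produce type I interferon, so both groups had met interferon before the cells were taken. Type I interferons bind a receptor made of IFNAR1 and IFNAR2, which activates the kinases TYK2 and JAK1. STAT2 is phosphorylated and joins IRF9 in a complex (ISGF3) that binds interferon-stimulated response elements (ISREs). Interferon gamma binds IFNGR1 and IFNGR2, works through JAK1 and JAK2, and acts on gamma-activated sites (GAS). SOCS1 is induced by both routes and blocks the kinases. In the marrow, type I interferon is known to drive quiescent stem cells into the cell cycle.

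Expression was read as a linear signal intensity per probe set, and groups were compared on log2(signal + 16) with limma, with p-values adjusted over all 45037 probe sets (Benjamini-Hochberg, threshold 0.05). A log2 difference is knockout minus control and understates the change of dim probe sets because of the added 16. Signals of different probe sets cannot be set against each other. The median signal of an array ranged from 26.7 to 26.9 among controls and from 16.5 to 21.3 among knockouts, at equal trimmed means. The probe set of Med12 itself had signals of 278.6, 837.4 and 441.6 in controls and 89.1, 100.4 and 86.4 in knockouts, so the groups did not overlap (limma's adjusted p = 0.0796). Whether this probe set lies inside the floxed region was not given. Of the sorting markers, Kit was lower in all 3 knockout arrays than in any control on both of its probe sets, and the dimmer one passed (log2 -1.27; limma's adjusted p = 0.0479) while the brighter one did not (log2 -0.89; adjusted p = 0.152). That call held in limma with array weights and with both filters on dim probe sets, and was lost in the other 14 alternatives (adjusted p = 0.0505 to 0.173), leaving out any 1 array among them. Sca1 (Ly6a) was not analysed here.

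Promoters of all 9 genes were found in the RefSeq table (build GRCm38.p6, 10 windows, each from 250 bases before to 50 after the start). They were searched on both strands for the ISRE core (GAAA, any 2 bases, GAAA) and the GAS core (TTC, any 3 bases, GAA), because these are the elements through which the relay can act on its own genes. The ISRE core lay in the Stat2 and Socs1 windows, against 3.44% of 32851 promoter windows of that length. The GAS core lay in the Ifnar1 and Ifnar2 windows, against 8.30% of all windows, and the other 5 genes had neither. The 2 ISRE matches of Socs1 overlapped by 4 bases. A match describes the letters only. The 4 windows with a match are shown because they include both chains of the type I receptor and the ISGF3 member Stat2. They lie at chr16:91372533-91372832 (plus strand) for Ifnar2, chr16:91484965-91485264 (plus) for Ifnar1, chr10:128270248-128270547 (plus) for Stat2 and chr16:10785487-10785786 (minus) for Socs1. They run 5′ to 3′ along the gene with the matches in capitals.
Ifnar2: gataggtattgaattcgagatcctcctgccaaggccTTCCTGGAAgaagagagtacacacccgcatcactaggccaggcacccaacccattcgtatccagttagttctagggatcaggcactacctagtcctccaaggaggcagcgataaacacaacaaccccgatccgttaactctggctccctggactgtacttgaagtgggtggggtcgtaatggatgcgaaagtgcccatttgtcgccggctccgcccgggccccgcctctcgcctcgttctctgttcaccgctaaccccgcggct
Ifnar1: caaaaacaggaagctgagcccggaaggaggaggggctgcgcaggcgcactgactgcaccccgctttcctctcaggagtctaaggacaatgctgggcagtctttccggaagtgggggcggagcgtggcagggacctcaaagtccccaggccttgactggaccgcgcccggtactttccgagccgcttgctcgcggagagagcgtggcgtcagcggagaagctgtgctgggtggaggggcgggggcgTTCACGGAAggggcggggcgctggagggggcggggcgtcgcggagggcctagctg
Stat2: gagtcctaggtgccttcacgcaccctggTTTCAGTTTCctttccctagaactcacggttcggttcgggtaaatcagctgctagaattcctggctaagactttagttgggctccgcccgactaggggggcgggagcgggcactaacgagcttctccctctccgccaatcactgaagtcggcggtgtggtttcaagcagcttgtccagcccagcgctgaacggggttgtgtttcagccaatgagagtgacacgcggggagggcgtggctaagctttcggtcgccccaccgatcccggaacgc
Socs1: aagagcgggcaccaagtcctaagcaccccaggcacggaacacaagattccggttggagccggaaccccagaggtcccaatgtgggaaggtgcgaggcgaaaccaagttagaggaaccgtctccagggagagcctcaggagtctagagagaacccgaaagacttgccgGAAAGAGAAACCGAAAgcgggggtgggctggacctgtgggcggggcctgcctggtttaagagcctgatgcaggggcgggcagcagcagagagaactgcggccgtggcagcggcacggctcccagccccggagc

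No member passed limma's test over all probe sets, and the smallest p values belonged to Ifnar2, whose signal was lower in knockouts. Of the 17 probe sets 0 were called, against 0.762% of all probe sets, and their adjusted p values lay between 0.0945 and 0.957. Unadjusted p was under 0.05 for 4, the 3 of Ifnar2 and 1 of Stat2, while 15.7% of all probe sets had such a p. In the same 4 all knockout arrays lay below all controls, as they did in 13.3% of all probe sets. In 0 of the 17 all knockout arrays lay above all controls, as they did in 7.61% of all probe sets. Log2 signal was lower in knockouts for 12 and higher for 5, beside 61.2% lower over all probe sets. After median centring the split was 8 lower and 9 higher, after quantile normalization 9 and 8, and after loess 10 and 7. The median of the 17 was -0.18, against -0.07 for all probe sets. It was 0.10 after median centring, where all probe sets had 0.20, and -0.33 when knockout replicate 2 was left out. Taken by the probe set of highest mean, the 9 genes had a median of -0.11, against -0.05 for all genes, and 0 of the 9 were called, against 0.989% of genes.

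**Figure D1:**
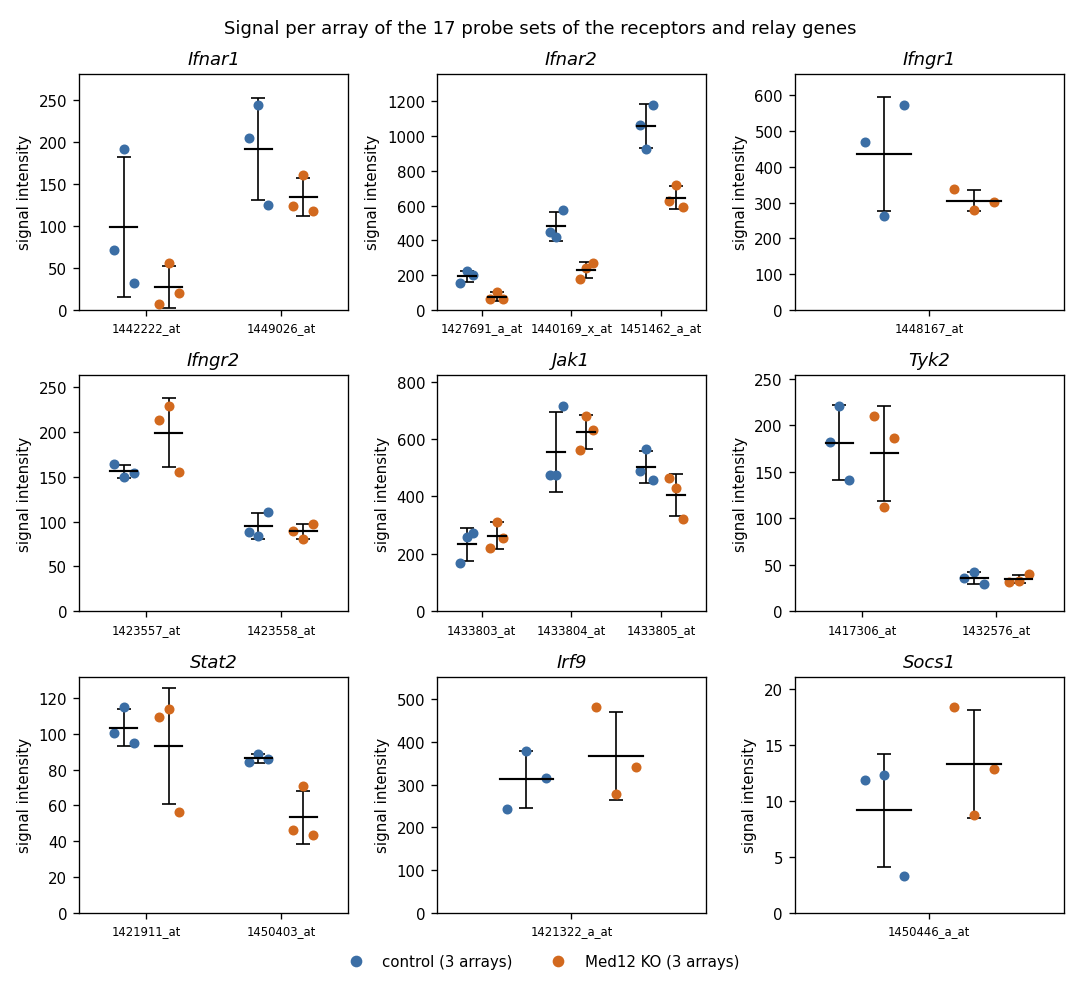
Signal intensity (linear, each panel with its own axis from 0) of every probe set of the 9 genes on the 3 control and 3 Med12 KO arrays; bars are mean ± SD. All 3 Ifnar2 probe sets and 1 of 2 Stat2 probe sets have every knockout array below every control array, and the groups overlap in the other 13.

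Ifnar2 encodes the high-affinity chain of the type I interferon receptor. Its brightest probe set, 1451462_a_at, had signals of 1065.3, 924.4 and 1180.9 in controls and 623.9, 720.2 and 590.7 in knockouts. The knockout arrays were lower without overlap, with means of 1057 ± 128 and 645 ± 67.3 (SD, n = 3 each). The log2 difference was -0.70 (SE 0.15, 95% interval -1.06 to -0.33), and limma's adjusted p was 0.111. In bulk RNA of sorted cells, less RNA per cell and fewer cells that carry the gene cannot be told apart.

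The other two Ifnar2 probe sets gave larger differences in the same direction. Probe set 1427691_a_at read 156.4, 221.1 and 198.7 in controls and 63.6, 104.6 and 60.8 in knockouts. Its log2 difference was -1.19 (SE 0.23) with an adjusted p of 0.0945 from limma, the smallest among the members. Probe set 1440169_x_at, of a class whose probes can also match other transcripts, read 446.9, 418.8 and 576.3 in controls and 175.1, 243.0 and 267.3 in knockouts. Its log2 difference was -1.03 (SE 0.21; limma's adjusted p = 0.101). The 3 probe sets read the same RNA on the same arrays and are not independent replicates. With 3 arrays against 3 the exact two-sided permutation test cannot go below 0.1, and each of the 3 probe sets reached that value.

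When each gene was given the mean log2 value of its probe sets instead of the brightest one, Ifnar2 passed limma's test, with a log2 difference of -0.97 (SE 0.15; adjusted p = 0.0357). Of all genes 2.79% were called in that fit, and the other 8 members were not called. The call was lost without any 1 of the 6 arrays (adjusted p = 0.0703 to 0.121), with the replicate number as a block (adjusted p = 0.1004), after median centring (adjusted p = 0.0552, log2 -0.70), with 4 added before log2 (adjusted p = 0.0680) and with a floor at 16 (adjusted p = 0.0889). Of all 18193 genes, 507 were called in the reported fit of means, but 5 to 104 without 1 array, 1 with the block and 51 with the floor. After median centring 1031 were called, and 372 with 4 added. The direction of Ifnar2 did not change under any of these settings.

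**Figure D2:**
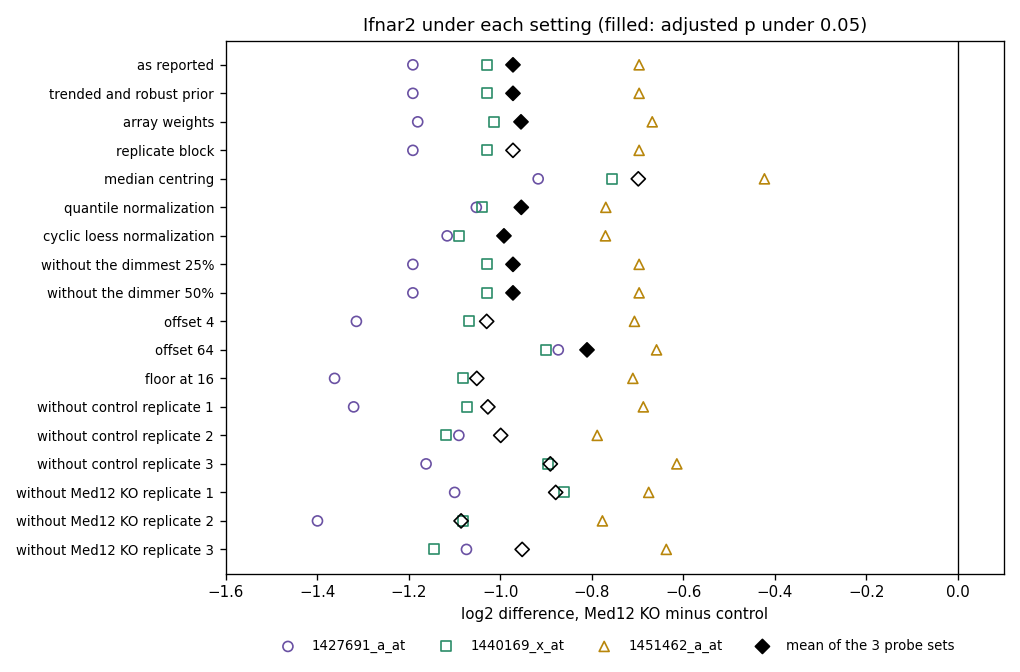
Log2 difference (knockout minus control) of the 3 Ifnar2 probe sets and of their mean under the reported fit and 17 alternatives; filled symbols have an adjusted p under 0.05 in limma. Every point lies left of 0, between -1.40 and -0.42, and only the mean of the 3 probe sets is filled, in 8 of its 18 fits.

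Ifnar1, the chain that partners IFNAR2 and carries TYK2, was lower on average, but its groups overlapped. Probe set 1449026_at read 204.3, 244.3 and 124.9 in controls and 124.0, 160.0 and 118.2 in knockouts, with the third control array close to the knockouts. The log2 difference was -0.43 (SE 0.26, 95% interval -1.07 to 0.21; limma's adjusted p = 0.500). The dimmer probe set 1442222_at read 71.5, 191.7 and 32.3 in controls and 6.9, 55.3 and 19.9 in knockouts. Its log2 difference was -1.30, with a wide error (SE 0.64; limma's adjusted p = 0.406). Without control replicate 3 the first became -0.68, and without control replicate 2 the second became -0.74, and neither passed.

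Differences in the interferon gamma receptor lay within the spread of the arrays, and its chains pointed in different directions. Ifngr1, the ligand-binding chain, read 470.4, 262.1 and 574.0 in controls and 336.8, 279.4 and 300.4 in knockouts. The second control array was the lowest of all 6, and the controls spread far more widely (SD 159) than the knockouts (SD 29.0). The log2 difference was -0.43 (SE 0.29, 95% interval -1.14 to 0.29; limma's adjusted p = 0.560). Without control replicate 2 it was -0.74 (limma's adjusted p = 0.178).

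Ifngr2, the signalling chain that carries JAK2, read 164.2, 149.8 and 154.1 in controls and 212.8, 229.0 and 155.8 in knockouts on 1423557_at. Here 2 knockout arrays were above all controls and the third lay among them. The log2 difference was 0.31 (SE 0.17, 95% interval -0.11 to 0.72; limma's adjusted p = 0.453). The second probe set, 1423558_at, read 88.1, 84.4 and 111.2 against 89.5, 80.7 and 96.8, and its log2 difference of -0.07 (SE 0.15) turned to 0.20 after median centring.

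On each array the log2 value of Ifnar2 was also set against that of Ifngr2, using the brightest probe set of each, which removes any scaling of the whole array. The 3 controls had offsets of 2.59, 2.50 and 2.82, and the 3 knockouts had 1.48, 1.59 and 1.82. Its size says nothing of relative abundance, since probe sets differ in brightness. All 3 knockout values lay below all control values. The offset from Jak1 did not overlap either, at 1.14, 0.94 and 0.71 in controls and 0.15, 0.08 and -0.09 in knockouts. The offsets from Ifnar1 (1.85 to 3.09 in controls, 2.06 to 2.19 in knockouts) and from Irf9 (1.25 to 2.06 and 0.36 to 1.32) overlapped. These 4 pairs were picked after the values were seen and were not tested.

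Among the kinases, Jak1, which serves both receptors, had 3 probe sets that disagreed in direction. Probe set 1433804_at read 473.5, 474.8 and 714.9 in controls and 562, 681.2 and 630.4 in knockouts (log2 0.19, SE 0.20). Probe set 1433803_at read 168.3, 257.6 and 270.8 in controls and 218.7, 312.2 and 256.0 in knockouts (log2 0.18, SE 0.23). The third, 1433805_at, read 486.9, 564.9 and 456.0 against 463.9, 428.8 and 321.4 (log2 -0.31, SE 0.18). The groups overlapped in each, limma's adjusted p values were 0.477 to 0.776, and the 95% intervals together spanned -0.75 to 0.74.

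Tyk2, the kinase bound to IFNAR1, read 182.6, 221.0 and 140.8 in controls and 210.7, 112.7 and 186.8 in knockouts on 1417306_at. The second knockout array was the lowest and the second control the highest. The log2 difference was -0.11 (SE 0.27, 95% interval -0.77 to 0.56; limma's adjusted p = 0.905), and it turned to 0.17 after median centring. The dim probe set 1432576_at read 35.2, 42.4 and 29.3 against 31.1, 32.5 and 39.7 (log2 -0.03, SE 0.15), and turned to 0.24 after median centring and 0.25 after quantile normalization.

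The 2 probe sets of Stat2, the STAT that is specific to type I and type III interferon signalling, differed from each other. Probe set 1450403_at read 84.0, 88.7 and 86.1 in controls and 46.0, 70.5 and 43.4 in knockouts. The controls lay close together and all knockouts were below them, with a log2 difference of -0.58 (SE 0.18, 95% interval -1.01 to -0.15; limma's adjusted p = 0.202). Probe set 1421911_at read 100.4, 114.8 and 95.1 in controls and 109.4, 114.0 and 56.1 in knockouts. Only the third knockout array was below the controls there, and the log2 difference was -0.18 (SE 0.26; limma's adjusted p = 0.811). Without knockout replicate 3 that difference was 0.10, and it was likewise 0.10 after median centring.

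Irf9, the DNA-binding subunit of ISGF3, read 243.3, 378.0 and 315.4 in controls and 481.4, 278.5 and 340.7 in knockouts. The groups overlapped, although the first knockout array was the highest of the 6. The log2 difference was 0.21 (SE 0.25, 95% interval -0.41 to 0.83; limma's adjusted p = 0.764), and it lay between 0.0027 and 0.48 under the alternative settings.

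Socs1, the feedback inhibitor, was near the bottom of the measured range. Its probe set read 11.9, 12.3 and 3.3 in controls and 18.4, 8.7 and 12.9 in knockouts, and 5 of the 6 signals were under the 16 that is added before log2. The log2 difference of 0.23 (SE 0.21; limma's adjusted p = 0.678) has little room to show a change, and its size rests on the added 16.

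**Figure D3:**
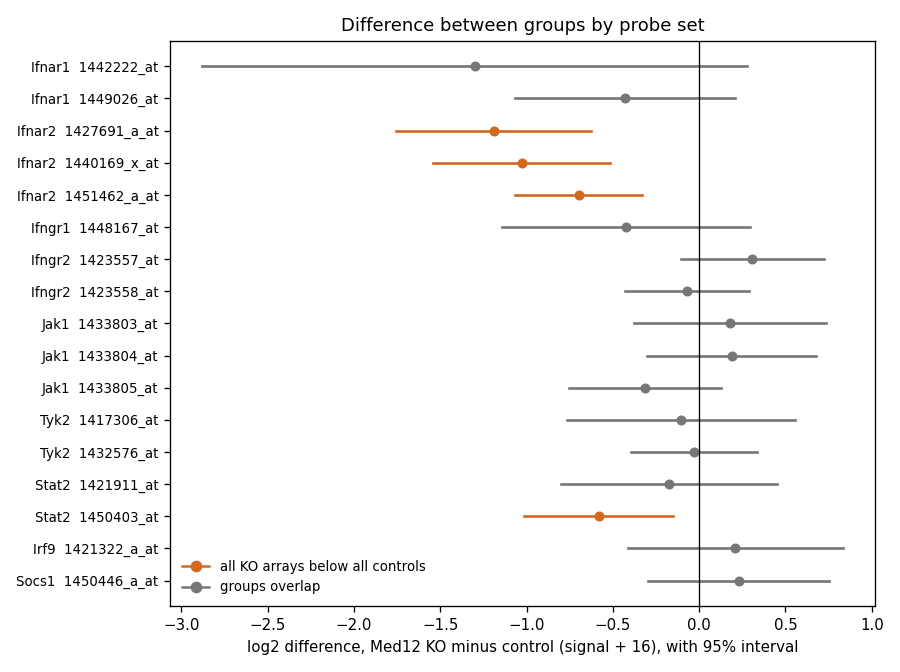
Log2 difference of signal + 16, knockout minus control, for each probe set, with limma's 95% interval before adjustment for the number of probe sets. The intervals of the 3 Ifnar2 probe sets and of Stat2 1450403_at lie below 0, and the other 13 include 0.

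Among the members, 3 receptor genes are neighbours on mouse chromosome 16, where RefSeq (GRCm38.p6) orders them Ifnar2, Il10rb, Ifnar1 and Ifngr2. Il10rb encodes the chain shared by the interleukin-10 and type III interferon receptors. By brightest probe set the log2 differences along this cluster were -0.70 for Ifnar2, -0.50 for Il10rb, -0.43 for Ifnar1 and 0.31 for Ifngr2. Il10rb read 270.7, 235.0 and 292.9 in controls and 286.9, 158.3 and 133.7 in knockouts, with the first knockout array among the controls. Its dimmer second probe set read 85.2, 52.8 and 112.0 against 28.4, 31.3 and 28.3, all knockouts below all controls (log2 -1.09; limma's adjusted p = 0.117). Of the 4 protein-coding genes flanking each side, Dnajc28 was at -0.91 (limma's adjusted p = 0.0936) and Paxbp1 at 0.58 (0.507), and none of the 12 genes in this stretch passed.

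**Figure D4:**
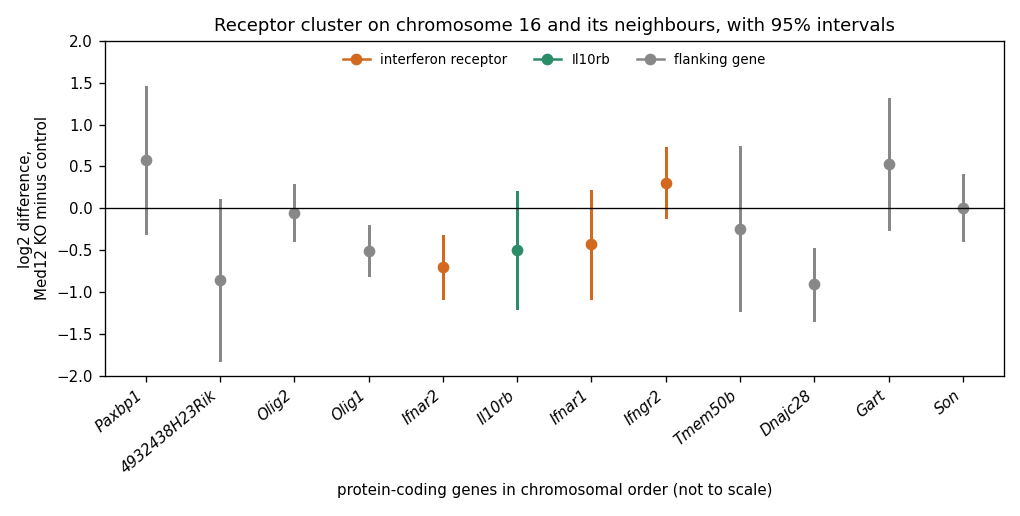
Log2 difference (knockout minus control, brightest probe set, 95% interval) of the interferon receptor cluster on chromosome 16 and 4 protein-coding genes on each side, in chromosomal order and not to scale. Ifnar2 lies at -0.70 and Ifngr2 at 0.31, and the flanking genes lie between -0.91 and 0.58.

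The genes whose pattern over the 6 arrays was most like that of Ifnar2 (probe set 1427691_a_at, the member probe set of lowest p) were Themis2, BC028528 and Crebrf. Likeness was the root mean square distance between log2 values centred on their own mean, among 7877 genes with a mean signal over 100. The distance was 0.0431 for Themis2, which read 315.3, 432.6 and 364.3 in controls and 128.9, 200.8 and 121.6 in knockouts. It was 0.114 for BC028528 and 0.126 for Crebrf. Their log2 differences were -1.24, -1.02 and -1.07, and none passed limma's test (adjusted p 0.0819 to 0.0969). The match is a description of 6 arrays in 2 groups.

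Among other genes of the pathway, 69 genes in 5 lists were measured, and 1 fell and 1 rose, against 0.638% and 0.352% of all genes. Of 9 related receptors, kinases and STATs, 0 were called, 6 were lower and 3 higher (3 and 6 after median centring). Unadjusted p was under 0.05 for 2 (limma), beside 3303 of all 18193 genes. All knockout arrays lay above all controls in 1792 of those 18193 genes and below them in 2470. The kinase Jak2, partner of IFNGR2, read 646.1, 656.0 and 390.5 in controls and 801.6, 829.9 and 937.1 in knockouts, all above the controls (log2 0.62; limma's adjusted p = 0.272). Its dimmer probe set read 48.4, 136.0 and 32.9 against 117.2, 124.8 and 140.0, and the groups overlapped (log2 0.87; limma's adjusted p = 0.394). Jak3, the kinase of common gamma chain receptors, was at -0.74 (limma's adjusted p = 0.244) and Stat4 at -0.86 (0.441). Stat3, Stat5a, Stat5b and Stat6 lay between -0.16 and 0.10. Ifnlr1, the type III interferon receptor, had signals under 16 on all 6 arrays.

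Of 16 inhibitors of the relay, 0 were called, 10 were lower and 6 higher (5 and 11 after median centring). An unadjusted p under 0.05 was found for 5 (limma), beside 3303 of all 18193 genes. Usp18, which binds IFNAR2 and dampens type I signalling, read 147.0, 123.9 and 87.0 in controls and 293.9, 233.2 and 293.5 in knockouts. All knockout arrays were above all controls, and the log2 difference was 1.12 (SE 0.21; limma's adjusted p = 0.0904), passing only after median centring (adjusted p = 0.0472). Socs2 was at 1.12 (limma's adjusted p = 0.153) on its brightest probe set, while its 5 others ran from -0.28 to 1.28. The STAT inhibitor Pias2 was at -0.75 (limma's adjusted p = 0.118), with its other probe sets at -0.04 and -0.02. The phosphatase gene Ptpn11 was at 0.32 (0.267), and its others at -0.25 and 0.71.

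Of 7 interferon regulatory factors, Irf8, needed for monocyte and dendritic cell development, fell, and 6 were not called. On its brighter probe set it read 800.7, 388.3 and 783.3 in controls and 22, 36.5 and 12.3 in knockouts (log2 -4.06, SE 0.36; limma's adjusted p = 0.0293). Its dimmer probe set read 591.2, 232.8 and 829.4 against 27.3, 25.5 and 19.1, and was also called (log2 -3.66; limma's adjusted p = 0.0405). Irf2, a repressor of interferon targets, was at -0.70 (0.215) and Irf4 at -1.06 (0.421). Irf7, the amplifier of type I interferon production, read 51.3, 87.5 and 64 in controls and 135.0, 94.8 and 115.7 in knockouts, all above the controls (log2 0.66; limma's adjusted p = 0.217). The 9 interferon genes measured had differences between -0.22 and 0.03, and 0 were called (limma, 0 with an unadjusted p under 0.05). Ifna11, Ifnb1, Ifnab and Ifna4 had the lowest p values among them, none with a signal over 15.7 on any array.

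Of 28 interferon-stimulated target genes, Isg20 rose, 0 fell and 27 were not called. Unadjusted p was under 0.05 for 5 of the 28 (limma), beside 3303 of all 18193 genes. Among these 5, Mx1 was lower (log2 -0.57), with overlapping groups, and the others were higher. Isg20, an exonuclease, read 130.3, 185.8 and 182.3 in controls and 1145.3, 869.9 and 769.5 in knockouts (log2 2.37, SE 0.21; limma's adjusted p = 0.0293). The list was higher in 21 and lower in 7, or 24 and 4 after median centring, 23 and 5 after quantile and 22 and 6 after loess normalization, with a median of 0.37 against -0.05 for all genes, of which 42.2% were higher. Leaving out control replicate 3 gave 18 higher and 10 lower with a median of 0.23, and leaving out knockout replicate 1 gave 18 and 10 with 0.24. On its brighter probe set Cmpk2 (1.57; limma's adjusted p = 0.0761) passed after median centring (adjusted p = 0.0459) and when the dimmest 25% (0.0367) or the dimmer 50% (0.0322) of probe sets were left out. The dimmer probe set of Cmpk2 was at 0.88 (limma's adjusted p = 0.179) and passed in no setting. Cmpk2, the RNA sensor gene Ifih1 (1.13; 0.156) and Oas1a (0.82; 0.205) had all knockouts above all controls. By brightest probe set, the calls of Isg20 and Irf8 were each lost without any 1 of the 6 arrays. They were also lost with the replicate block and with a floor at 16 (adjusted p up to 0.153). The dimmer Irf8 probe set stayed called without control replicate 2 (limma's adjusted p = 0.0434). Its call was lost without any other array, with the block and with the floor. It was also lost after quantile normalization (adjusted p = 0.0512) and with 64 added before log2 (0.0775).

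**Figure D5:**
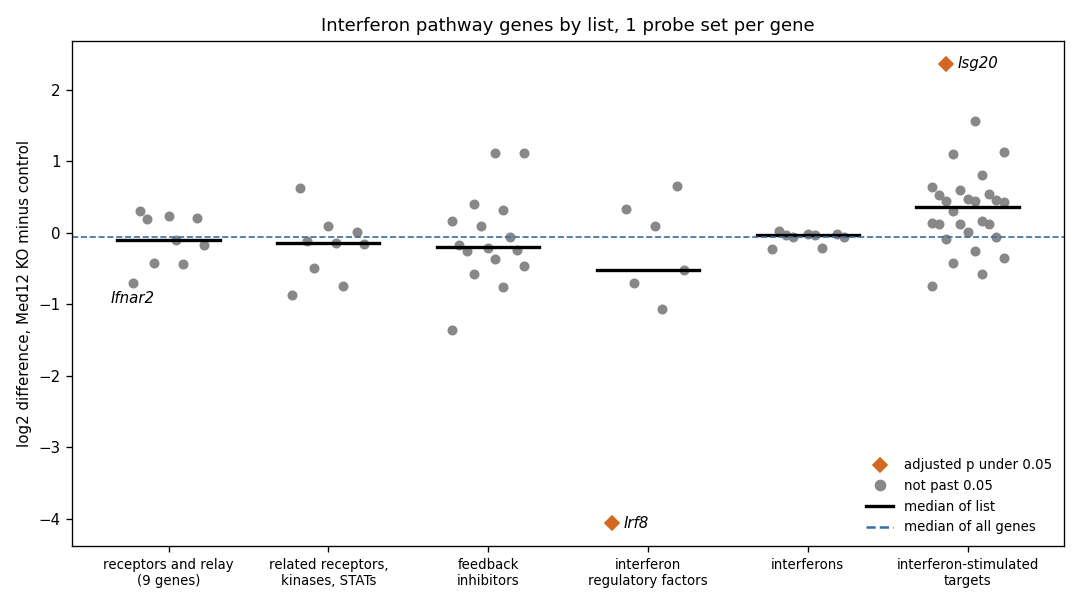
Log2 difference (knockout minus control, brightest probe set per gene) of the 9 genes and of 5 lists of other interferon pathway genes; black bars are medians, the dashed line is the median of all genes (-0.05), diamonds passed limma's test. Ifnar2 is the lowest of the 9 at -0.70, and Irf8 and Isg20 are the only diamonds.

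Markers of blood lineages moved with the groups in the same libraries. All 5 myeloid progenitor markers fell, and their summed signal went from 7495 to 13964 in controls to 542 to 1355 in knockouts. Of 5 early lymphoid markers 4 fell (sums of 3177 to 3876 and 33.5 to 101.0), and all 4 erythroid markers rose (1215 to 1273 and 3965 to 5750). Of 5 megakaryocyte markers 1 rose (3256 to 4609 and 5178 to 6793). In such sums the brightest genes weigh most. Pf4, the brightest megakaryocyte marker, overlapped between groups (log2 0.10; limma's adjusted p = 0.875). The macrophage (159 to 344 and 91.6 to 115), mature neutrophil (70.4 to 125 and 42.3 to 55.6) and T and NK cell lists (59.8 to 84.1 and 37.4 to 72.3) were dim in both groups, and 1 macrophage gene, C1qa, fell. B cell markers summed to 233 to 415 and 84.3 to 326, and endothelial markers to 528 to 820 and 218 to 349, with 0 called in either (limma; 1 each with an unadjusted p under 0.05). Kit, Cd34 and Flt3, listed as markers of the sorted progenitors, summed to 3492 to 4791 in controls and 1079 to 1718 in knockouts. By brightest probe set all 3 had every knockout array below every control, as had 2470 of all 18193 genes. Of these 3, 0 were called (limma; 3 with an unadjusted p under 0.05), with Flt3 at -3.87 (adjusted p = 0.0573). No marker was listed at exactly 0 on any array. Of the 43 markers 15 were called in all, but 0 without knockout replicate 1 (limma; 6219 of all probe sets had an unadjusted p under 0.05), 0 without knockout replicate 3 (5340), 0 with the replicate block (6752) and 1 or 2 without any other array. It was 2 with a floor at 16 and 7 to 9 with another offset or after quantile or loess normalization. The part of these markers in the lower Ifnar2 signal was not tested.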

How the data were processed

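The authors deposited 1 linear signal intensity per probe set and array. The submitters' processing notes name RMA, which gives log2 values, but the deposited intensities are linear and run from 0 to 11134, with a mean of 150.0 on every array after leaving out 2% at each end, so the step that made them is not known here. RNA (5 ng) was amplified with NuGEN Ovation, per the labels' protocols. Of 45101 probe sets, 64 controls were left out. Symbols came from the platform annotation: 34945 probe sets had 1 symbol, 932 several and 9160 none, and all 6 value columns were used.

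The comparison used limma 3.58.1 (lmFit, eBayes) under R 4.3.3 (two-sided moderated test with 4 residual and 1.96 prior degrees of freedom), Benjamini-Hochberg adjusted over all probe sets. The steps were tested on simulated data. The members, lists and settings were chosen with earlier results of these data known. Named genes were the members, Med12, Kit, the 4 genes of each pathway list with the lowest unadjusted p and 3 genes most like the leading member; other names were chosen by position or after their values were seen. The number of arrays limits the precision. Alternatives were other priors, array weights, a replicate block, scalings, filters, offsets and leaving out each array.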

Additional observations from a re-analysis of the deposited data

How the results depend on the processing

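The count of 0 called member probe sets held under all 17 alternatives, leaving out each array included (lowest and highest 0, with 3 to 7 at an unadjusted p under 0.05 in limma). By gene, using the brightest probe set, 0 were called in each of them too, and 1 (Ifnar2) when the probe sets of each gene were averaged. Fits without 1 array called only 0 to 10 of all 45037 probe sets, and the replicate block called 0. A count of 0 members was therefore fixed or nearly fixed in those fits. The direction of Ifnar2, Ifnar1, Ifngr1, Irf9 and Socs1 never turned; Socs1 dropped out without the dimmer 50% of probe sets. Median centring, which moves the median of all genes from -0.05 to 0.22, turned Ifngr2 1423558_at to 0.20, Tyk2 1417306_at to 0.17, Tyk2 1432576_at to 0.24 and Stat2 1421911_at to 0.10. Quantile normalization turned Ifngr2 1423558_at to 0.11, Tyk2 1432576_at to 0.25 and Stat2 1421911_at to 0.0060, and loess turned Ifngr2 1423558_at to 0.052 and Tyk2 1432576_at to 0.23. Leaving out 1 array gave -0.14 to 0.036 for Ifngr2 1423558_at, -0.023 to 0.30 for Jak1 1433803_at, -0.27 to 0.14 for Tyk2 1417306_at, -0.12 to 0.063 for Tyk2 1432576_at and -0.33 to 0.10 for Stat2 1421911_at. The cause was not tested.

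The other pathway genes were counted by brightest probe set. Of them, 2 were called as reported, 4 after median centring, 0 with a floor at 16 and 0 with the replicate block. Leaving out any 1 array gave 0 (limma, 12 to 16 at an unadjusted p under 0.05). Over all probe sets 343 were called, 693 after median centring, 712 without the dimmest 25%, 763 without the dimmer 50%, 84 with a floor at 16, 0 with the replicate block (limma, 6752 at an unadjusted p under 0.05) and 0 to 10 without 1 array. After median centring 431 of the 693 calls were higher in knockouts, against 99 of 343. With the block Ifnar2 had adjusted p values of 0.167, 0.178 and 0.248 by probe set. Over all probe sets the deviations of same-numbered arrays had correlations of 0.0190, 0.0193 and 0.0019. Arrays of unlike number had -0.0568 to 0.0341. With 3 arrays a group this cannot settle whether the numbers pair the samples. With 3 arrays a group, signal over background limits Socs1 and most interferon genes.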
